A study of Homo sapiens with 18 samples.

Results

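The 6 libraries described here compare LNCaP cells with reduced NFYA against cells given a control siRNA, all without androgen. They were chosen by their sample names, 3 siNFYA vehicle libraries and 3 control vehicle libraries, out of 18 samples in the series. LNCaP is a human prostate cancer line that responds to androgen. All cells were seeded in medium with 5% charcoal-stripped serum, which lacks steroids, for 48 h, and then received 96% ethanol, the vehicle, for 24 h. The siNFYA group was transfected with an siRNA pool against NFYA, and the control group with a pool of siRNAs that has no target. The series has 6 groups in all, and 3 more are set beside these where stated: the same pair of siRNA groups given the synthetic androgen R1881 at 10 nM, and siKLF5 in vehicle, of which 2 libraries were used. RNA was measured by stranded RNA sequencing, and the values are estimated counts per gene. All libraries come from 1 cell line, and the knockdown came from 1 siRNA pool.

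NFYA is a subunit of NF-Y, a trimer with NFYB and NFYC that binds the CCAAT sequence in promoters. NFYB and NFYC pair through histone folds, and NFYA joins them and reads the CCAAT bases. CCAAT boxes are common in promoters of cell cycle genes, histone genes, lipid synthesis genes and chaperones of the endoplasmic reticulum.

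Library totals in vehicle ran from 4416653 to 6411869 estimated counts. Nothing in the labels says that the libraries of a group came from separate cultures. The p-values of gene tests thus set a difference against the spread between libraries, estimated over all groups in the fit. They may not reflect the spread between cultures. Prostate luminal markers were present, with 21 of 23 at a mean of at least 1 CPM (counts scaled to a common library total), and they summed to 8404 to 8451 CPM in control against 7526 to 7690 CPM with siNFYA. The basal markers KRT5, KRT17 and TP63 were at 0, as were INSM1 (neuroendocrine), SPARC (stromal) and CD3E, CD14, HBB, CDH5 and KDR (blood and endothelial). The make-up of the libraries differed with the knockdown. Mitochondrially encoded genes held 1.89 ± 0.156% of counts in control and 2.81 ± 0.206% with siNFYA, and retained-intron transcripts held 2.18 ± 0.0419% and 2.87 ± 0.201% (mean ± SD, n = 3). Each exact two-sided permutation p was 0.1, the smallest that 3 against 3 libraries allow. The rRNA-like gene AC010970.1 held 2.85% of the counts of siNFYA replicate 3 and 0.120 to 0.424% in the other vehicle libraries.

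The NFYA transcript itself was reduced but not removed. NFYA (ENSG00000001167, chr6:41072945-41099976, GRCh38) stood at 68.6, 71.4 and 73.6 CPM in control and at 48.2, 44.2 and 46.9 CPM with siNFYA. The groups did not overlap, and the siNFYA mean was 0.652 of the control mean (71.2 ± 2.51 against 46.4 ± 2.02 CPM, SD, n = 3). NFYA fell by 0.62 on the log2 scale (SE 0.0631, adjusted p = 4.06e-07, edgeR quasi-likelihood test with Benjamini-Hochberg adjustment, as for every adjusted p here). In R1881 its change was -0.62 as well (adjusted p = 2.37e-07), and the difference between the treatments had an adjusted p of 0.998. The partner subunits NFYB (log2 -0.01, adjusted p = 0.946) and NFYC (0.06, adjusted p = 0.647) did not pass. At the transcript level NFYA-201, a form with 10 exons, had 387.7, 404.9 and 403.6 estimated counts in control and 236.4, 219 and 180.4 with siNFYA (log2 -0.58, adjusted p = 0.00314). NFYA-202, with 9 exons, had a log2 change of -0.87 that did not pass (adjusted p = 0.178). The split of reads between the forms is an estimate whose error is not in the files.

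**Figure D1:**
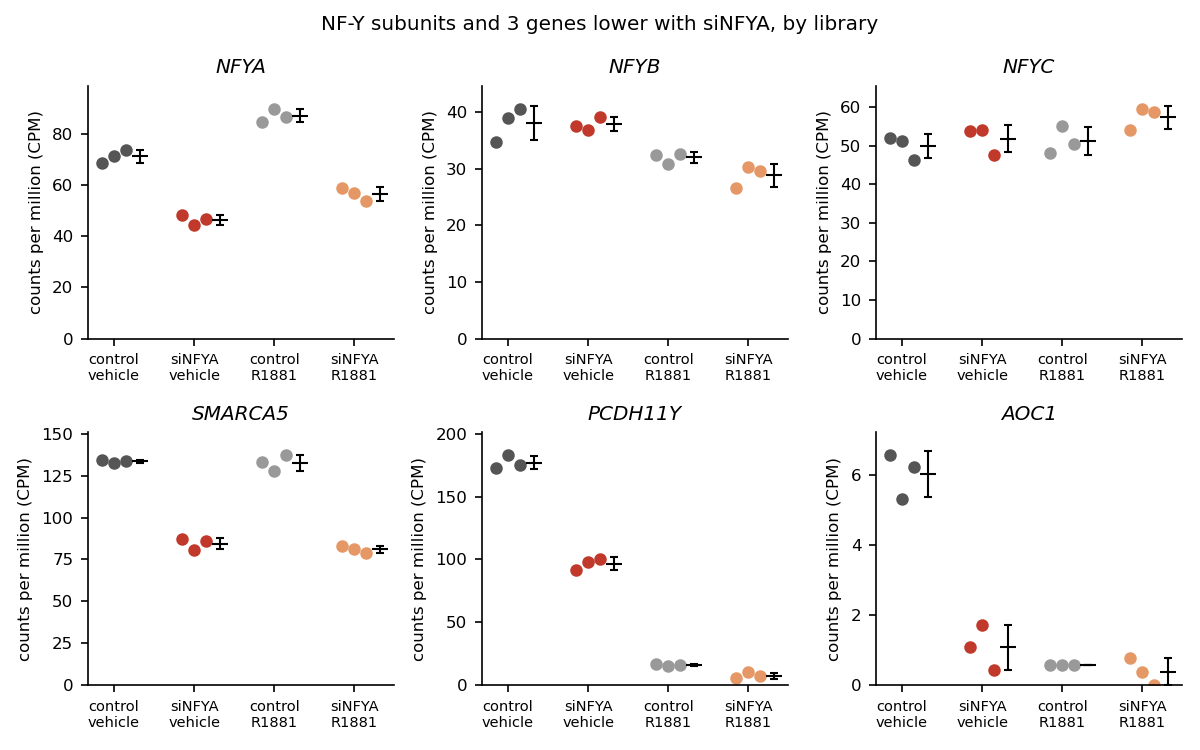
CPM of NFYA, NFYB, NFYC, SMARCA5, PCDH11Y and AOC1 in each library of the 4 groups. Points are libraries and the bars beside them are the mean ± SD (n = 3). NFYA sits at 44.2 to 48.2 CPM in the siNFYA vehicle libraries, below all control vehicle libraries, while NFYB and NFYC overlap between the groups.

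Many genes moved by a small amount. Of 12601 genes tested, 1696 passed at adjusted p under 0.05 (13.5%), 841 of them higher (6.67%) and 855 lower (6.79%) with siNFYA. The count of 1696 was 1065 without control replicate 2 and 1093 without siNFYA replicate 1. The median size of these changes was 0.283 on the log2 scale, and the median change over all genes tested was -0.00143. Changes of at least 2-fold were mostly rises, with 83 genes higher and 14 lower, or 47 and 12 with retained-intron transcripts left out. The libraries of the groups did not overlap in CPM for 3832 genes (30.4%). Fewer cells of a kind and less RNA per cell cannot be told apart in bulk RNA.

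The largest falls were in genes with varied roles, most of them at low levels, PCDH11Y excepted. The 14 largest falls, taken from protein-coding genes whose groups did not overlap and whose control mean reached 5 CPM, were AOC1, ACTRT3, VEGFB, GRIK1, B3GALT4, PCDH11Y and DIXDC1, which passed whichever library was left out, and BLOC1S5-TXNDC5, SMIM11A, SLC22A2, BVES, IL36RN, LAMB1 and SLC40A1, which did not. AOC1, the diamine oxidase that breaks down histamine and putrescine, stood at 6.57, 5.32 and 6.24 CPM in control and 1.08, 1.72 and 0.428 CPM with siNFYA (log2 -2.41, SE 0.371, adjusted p = 0.000102). Every siNFYA library was below every control library. ACTRT3, an actin-related protein, went from 10.3, 15.5 and 13.5 CPM to 7.37, 5.33 and 5.35 CPM (log2 -1.12, adjusted p = 0.00118). GRIK1, a kainate receptor subunit, went from 21.8, 20.3 and 17.5 CPM to 9.53, 11.4 and 8.99 CPM (log2 -0.99, adjusted p = 0.000238). The groups did not overlap for these genes either. VEGFB, a vascular growth factor, had a log2 change of -1.06 (adjusted p = 0.00412), B3GALT4, a galactosyltransferase of ganglioside synthesis, -0.97 (adjusted p = 0.00636), and DIXDC1, a Wnt pathway protein, -0.82 (adjusted p = 0.00284). DIXDC1 did not pass with retained-intron transcripts left out (-0.53, adjusted p = 0.21). BLOC1S5-TXNDC5, a readthrough transcript that shares sequence with its neighbours, had 0 counts in siNFYA replicates 1 and 3, and its change of -2.67 (adjusted p = 0.0285) did not pass without siNFYA replicate 1 (adjusted p = 0.131), siNFYA replicate 3 (0.0778), control replicate 2 (0.102) or control replicate 3 (0.0662). SLC22A2, an organic cation transporter, had a change of -0.92 (adjusted p = 0.0239) that did not pass without siNFYA replicate 2 (adjusted p = 0.157), control replicate 2 (0.084) or control replicate 3 (0.0569). SMIM11A has a near-identical copy, so its counts are uncertain, and it did not pass without control replicate 1, control replicate 2 or any siNFYA library (adjusted p 0.071 to 0.222). BVES, a membrane protein of epithelial and muscle cells, did not pass without control replicate 1 or 2 or siNFYA replicate 2 or 3 (adjusted p 0.0866 to 0.172). SLC40A1, the iron exporter ferroportin, did not pass without any single control library or siNFYA replicate 2 or 3 (adjusted p 0.0654 to 0.174). LAMB1, a laminin chain (log2 -0.82, adjusted p = 0.0153), did not pass without control replicate 1 (adjusted p = 0.05004), control replicate 2 (0.0621) or siNFYA replicate 3 (0.0763), and it had 0.16 with limma on log2(TPM + 1).

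The falls with the smallest adjusted p were in more abundant genes, and these were picked out after their values were seen. SMARCA5, the ATPase of the ISWI chromatin remodelers, stood at 134, 133 and 134 CPM in control and at 87, 80.5 and 85.9 CPM with siNFYA. Libraries within a group lay close together and the groups lay far apart (log2 -0.66, SE 0.0492, adjusted p = 3.8e-09), and in R1881 the change was -0.71 (adjusted p = 7.99e-10). PCDH11Y, a protocadherin with a near-identical copy on the X chromosome, went from 173, 183 and 175 CPM to 91.2, 98.1 and 101 CPM (log2 -0.87, SE 0.0578, adjusted p = 1.35e-09). ADGRG6, an adhesion receptor coupled to G proteins, went from 824, 851 and 880 CPM to 591, 621 and 638 CPM (log2 -0.47, adjusted p = 4.12e-09). These groups did not overlap, and the calls held without any one library. LRRN1, a leucine-rich repeat membrane protein, had a log2 change of -0.51 (adjusted p = 4.53e-09), OPRK1, the kappa opioid receptor, -0.75 (adjusted p = 1.6e-08) and MANEA, a Golgi endomannosidase of glycan trimming, -0.45 (adjusted p = 2.81e-08).

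Promoters were searched for the NF-Y motif letters. Windows of 250 bases before to 50 after each annotated start were taken from RefSeq (GRCh38.p14) for the 9962 of 12601 tested genes with an entry, 14550 windows in all. CCAAT, or ATTGG for the other strand, was in 35.0% of all windows, in 36.1% of those of genes called higher, in 34.1% of those called lower and in 35.0% of those not called. Within 120 to 41 bases before the start the shares were 19.3, 21.1, 18.6 and 19.2%. Called genes thus held the motif about as often as all genes. Of the windows of the 14 largest falls, 4 of 19 held it (21.1%), and of those of the 14 largest rises, named below, 2 of 12 (16.7%). A match is a description of letters and not a bound site.

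The sequences below show what such promoters look like in genes that fell, as the 250 bases before the start, 5′ to 3′ on the gene's strand, with CCAAT or ATTGG in capitals and positions counted back from the start (-1 is the base before it). They are the windows of the 5 largest falls with a match, among windows that lie outside every gene of GENCODE v29, a limit added after the data were seen. Each gene is shown by 1 window, although IL36RN has 2 annotated starts, EPHA7 3 and ZBTB20 8. IL36RN, an antagonist of the IL-36 receptor (chr2:113058388-113058637, plus strand; log2 -0.83), has 1 match, at -115. EPHA7, an ephrin receptor (chr6:93419560-93419809, minus strand; log2 -0.58), has 2, at -193 and -23. ZBTB20, a zinc-finger repressor (chr3:115147289-115147538, minus strand; log2 -0.55), has 5. SIPA1L2, a GTPase-activating protein family member (chr1:232630134-232630383, minus strand; log2 -0.51), has 2. DNAJC12, a J-domain co-chaperone (chr10:67838189-67838438, minus strand; log2 -0.50), has 1, at -12.
IL36RN: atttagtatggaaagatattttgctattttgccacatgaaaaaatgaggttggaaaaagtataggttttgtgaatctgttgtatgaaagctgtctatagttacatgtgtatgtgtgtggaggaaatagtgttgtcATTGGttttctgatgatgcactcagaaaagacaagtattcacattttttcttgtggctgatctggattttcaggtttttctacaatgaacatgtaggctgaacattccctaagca
EPHA7: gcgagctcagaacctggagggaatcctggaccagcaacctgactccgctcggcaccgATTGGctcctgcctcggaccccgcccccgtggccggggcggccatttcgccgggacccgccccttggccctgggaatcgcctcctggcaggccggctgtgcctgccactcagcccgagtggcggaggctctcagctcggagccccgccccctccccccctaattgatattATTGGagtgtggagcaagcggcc
ZBTB20: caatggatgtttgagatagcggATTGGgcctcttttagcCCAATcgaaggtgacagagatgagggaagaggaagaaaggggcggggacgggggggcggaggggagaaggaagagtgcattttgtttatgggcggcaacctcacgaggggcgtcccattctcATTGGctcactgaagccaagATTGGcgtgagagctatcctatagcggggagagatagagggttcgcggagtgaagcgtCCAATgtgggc
SIPA1L2: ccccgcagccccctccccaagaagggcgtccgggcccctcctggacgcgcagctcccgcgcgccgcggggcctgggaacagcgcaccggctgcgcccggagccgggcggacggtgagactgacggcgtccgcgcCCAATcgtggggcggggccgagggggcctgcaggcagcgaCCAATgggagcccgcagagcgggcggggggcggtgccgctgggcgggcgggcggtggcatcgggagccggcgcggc
DNAJC12: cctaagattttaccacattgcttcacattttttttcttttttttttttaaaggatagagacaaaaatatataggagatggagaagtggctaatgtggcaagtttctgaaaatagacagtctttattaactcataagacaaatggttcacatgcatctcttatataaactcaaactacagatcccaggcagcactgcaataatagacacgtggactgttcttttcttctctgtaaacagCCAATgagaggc
The call was lost for IL36RN without control replicate 2 (adjusted p = 0.0955) or siNFYA replicate 3 (0.0552), for SIPA1L2 without control replicate 3 (0.135), siNFYA replicate 1 (0.132) or siNFYA replicate 3 (0.052), and for DNAJC12 without control replicate 2 (0.0505).

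A gene that fell without the letters and a gene that rose with them are set beside these. SI, sucrase-isomaltase (chr3:165078497-165078746, minus strand), had no match and went from 35.6, 40 and 38.3 CPM to 24.8, 24.4 and 22.1 CPM (log2 -0.67, adjusted p = 5.66e-05). CDK1, the mitotic kinase whose promoter is a textbook NF-Y target, was added after its values were seen. The window shown (chr10:60778081-60778330, plus strand), at 1 of 2 annotated starts, has 1 match, at -150. CDK1 went from 176, 169 and 173 CPM to 208, 192 and 214 CPM (log2 0.24, adjusted p = 0.00108). The libraries did not overlap for either gene.
SI: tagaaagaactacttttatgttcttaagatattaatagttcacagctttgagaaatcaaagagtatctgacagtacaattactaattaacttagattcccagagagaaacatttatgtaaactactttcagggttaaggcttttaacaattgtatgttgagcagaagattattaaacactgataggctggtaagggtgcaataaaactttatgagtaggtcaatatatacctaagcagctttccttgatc
CDK1: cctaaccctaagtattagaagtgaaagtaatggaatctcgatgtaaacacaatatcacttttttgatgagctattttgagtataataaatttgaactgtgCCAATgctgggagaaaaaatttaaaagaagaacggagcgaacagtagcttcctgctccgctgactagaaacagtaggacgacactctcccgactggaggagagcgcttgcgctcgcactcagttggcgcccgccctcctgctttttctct

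The largest rises included genes with many counts in transcripts that retain introns. By the same rule, with the siNFYA mean reaching 5 CPM, the 14 largest were GAGE12G, TBC1D10C, PCSK5, PLCG2, GOLGA8A, GOLGA8B, JMJD7-PLA2G4B, PABPC1L, RTEL1-TNFRSF6B, NPIPB4, HSF4, MAPK8IP3, MYO15B and PILRB. At least 20% of the siNFYA counts were in such transcripts for 7 of the 14, 18.3% of genes called higher and 5.82% of all genes tested. Such counts add to a gene's siNFYA value, so choosing large rises can itself favour these genes. With those transcripts left out, 9 of the 14 still passed. GOLGA8B, a golgin gene with near-identical copies on chromosome 15, stood at 9.56, 9.34 and 5.05 CPM in control and 32.2, 23.2 and 26.6 CPM with siNFYA (log2 1.77, SE 0.183, adjusted p = 4.97e-07). PABPC1L, a poly(A)-binding protein gene, went from 6.27, 4.74 and 3.57 CPM to 18.3, 14.8 and 11.6 CPM (log2 1.62, adjusted p = 1.42e-05). MAPK8IP3, a scaffold of JNK signalling and axonal transport, went from 15.1, 12.2 and 10.3 CPM to 33.1, 32.9 and 25.1 CPM (log2 1.29, adjusted p = 4.06e-07). In each of these the lowest siNFYA library was above the highest control library. PCSK5 rested on siNFYA replicate 2, which held 28.4 CPM against 4.5 CPM in each of the others (log2 2.00, and 0.49 with adjusted p = 0.431 without it). PLCG2 rested on siNFYA replicate 3, at 42.4 CPM against 9.53 and 5.68 CPM (log2 1.82, and 0.54 with adjusted p = 0.152 without it). GAGE12G, one of many near-identical copies, did not pass when control replicate 2 or 3 or any siNFYA library was left out (adjusted p 0.0661 to 0.138).

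Most retained-intron transcripts had values above 0. Of 3160 such transcripts tested, 74.2% had a change above 0, with a median of 0.62, against 45.0% of 26674 protein-coding transcripts, with a median of -0.04. Single transcripts rarely passed: 29 retained-intron transcripts were called higher (0.918%) and 1 lower (0.0316%), and over all 35475 transcripts 63 were called higher (0.178%) and 98 lower (0.276%), 161 in all. With any one of the 6 libraries left out, 38 to 85 transcripts passed. With retained-intron transcripts left out of each gene's count, a choice made after the data were seen, 1248 of 12486 genes passed (10.0%), 581 higher (4.65%) and 667 lower (5.34%). Of the calls with all transcripts, 552 of the 841 higher and 640 of the 855 lower were kept. CLK1, a kinase of splicing factors, went from 30.8, 26.9 and 25.6 CPM to 39.4, 37.3 and 36.6 CPM with all transcripts (log2 0.45, adjusted p = 0.0034) and had a change of -0.07 (adjusted p = 0.787) without them. OGT, the O-GlcNAc transferase, went from 133, 135 and 144 CPM to 198, 184 and 179 CPM (log2 0.45, adjusted p = 1.47e-06) and had 0.09 (adjusted p = 0.294) without them. Neither pair of groups overlapped with all transcripts counted. GOLGA8B likewise did not pass without them (1.01, adjusted p = 0.211), and JMJD7-PLA2G4B turned from 1.74 to -0.14 (adjusted p = 0.949). PABPC1L (1.64, adjusted p = 5.22e-05) and NPIPB4 (1.61, adjusted p = 3.66e-06), a gene of the duplicated NPIP family, passed as before.

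**Figure D2:**
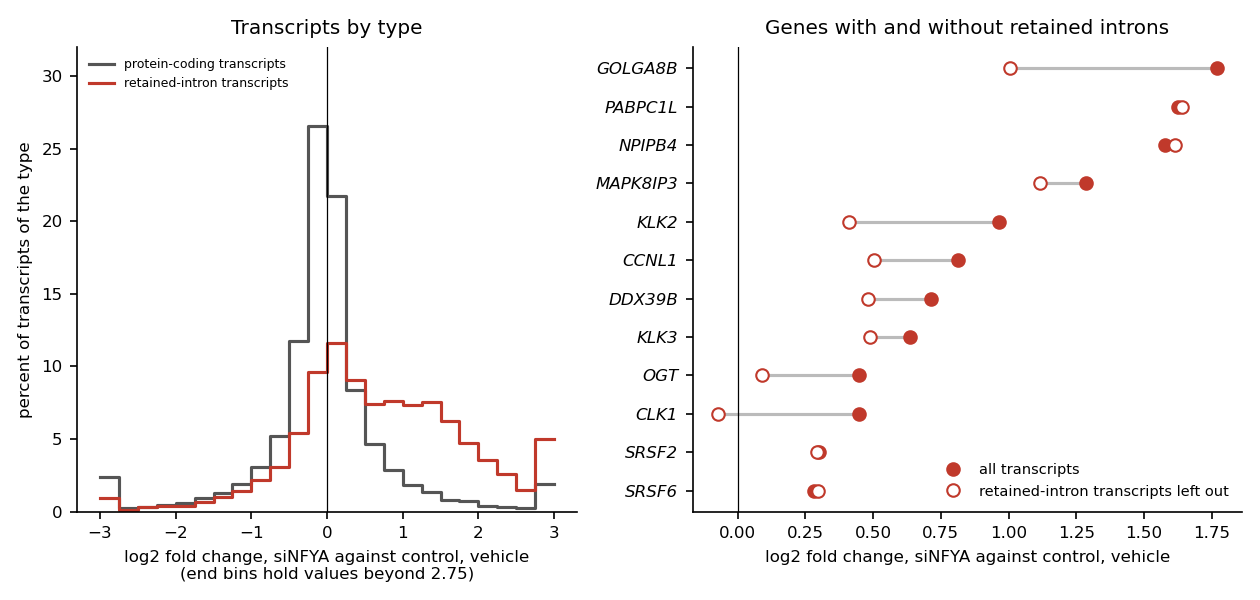
Left, the share of transcripts of each type by log2 fold change of siNFYA against control in vehicle, where the end bins hold everything beyond 2.75. Right, the log2 fold change of 12 genes with all transcripts (filled) and with retained-intron transcripts left out (open). The retained-intron curve lies to the right of the protein-coding curve, with medians of 0.62 and -0.04, and CLK1, OGT, KLK2 and GOLGA8B move most toward 0.

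Some splicing regulators rose. Of 48 measured, 20 were higher and none lower, with a median of 0.09 on the log2 scale, beside 6.67% of all genes called higher and a median of -0.00143. SRSF6, a serine- and arginine-rich splicing factor, went from 236, 234 and 219 CPM to 283, 288 and 266 CPM (log2 0.28, SE 0.0391, adjusted p = 2.87e-05) and kept 0.30 without retained-intron transcripts. SRSF2, of the same family, went from 181, 179 and 188 CPM to 230, 226 and 218 CPM (log2 0.30, adjusted p = 0.000103). CCNL1, a cyclin of splicing speckles, went from 32.7, 31.5 and 25.7 CPM to 54.7, 52.1 and 51 CPM (log2 0.81, adjusted p = 6.62e-07), and DDX39B, an RNA helicase of splicing and mRNA export, from 110, 115 and 109 CPM to 185, 163 and 202 CPM (log2 0.71, adjusted p = 1.39e-07). No siNFYA library overlapped the control range in these 4 genes. The last 2 were picked out after their values were seen, and they had 0.50 and 0.48 without retained-intron transcripts (adjusted p = 0.0158 and 0.00536). The count of 20 was 9 without siNFYA replicate 1, 13 without control replicate 2, control replicate 3 or siNFYA replicate 2, and 9 with retained-intron transcripts left out. It was 12 with DESeq2 and 3 with limma on log2(TPM + 1), and 1 regulator was lower in each of these last 3. Golgin and segmentally duplicated genes had 9 of 26 higher and none lower (median 0.26), and reads of such copies can be split wrongly between them. In R1881, where 5.96% of genes were called, 2.63% higher and 3.33% lower, 14 of the 48 splicing regulators and 9 of the 26 duplicated genes were higher and none lower.

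All 13 mitochondrially encoded mRNAs rose, while nuclear genes of the same complexes did not move as a group. MT-CO1, a subunit of cytochrome c oxidase, stood at 5406, 4737 and 4988 CPM in control and at 8340, 7761 and 7242 CPM with siNFYA (log2 0.63, SE 0.0453, adjusted p = 3.07e-09). MT-ATP6, of ATP synthase, went from 805, 695 and 748 CPM to 1232, 1165 and 1166 CPM (log2 0.66, adjusted p = 2.02e-09), and MT-ND4, of complex I, from 2579, 2175 and 2309 CPM to 3791, 3502 and 3355 CPM (log2 0.59, adjusted p = 1.54e-08). The groups stood apart in all 13 mRNAs, and the list's median was 0.56. Of 52 nuclear genes of oxidative phosphorylation, 3 were higher and 2 lower (median 0.01). CYC1, cytochrome c1, rose from 135, 133 and 149 CPM to 164, 176 and 154 CPM (log2 0.25, adjusted p = 0.0032), and NDUFA4 fell from 219, 235 and 239 CPM to 195, 208 and 184 CPM (log2 -0.24, adjusted p = 0.0023). Of 26 genes that handle mitochondrial RNA or regulate mitochondrial genes, 4 were higher and none lower (median 0.08), beside 6.67% and 6.79% of all genes. POLRMT, the mitochondrial RNA polymerase, went from 36.9, 32.6 and 33.9 CPM to 42.6, 48.5 and 47.8 CPM (log2 0.43, adjusted p = 0.00118). ESRRA, a nuclear receptor of mitochondrial genes, had 0.36 (adjusted p = 0.00245). FASTK, which stabilises MT-ND6 mRNA, had 0.29 (adjusted p = 0.00189), and 0.16 (adjusted p = 0.156) without retained-intron transcripts. In R1881 all 13 mitochondrial mRNAs also rose (median 0.90). The difference between treatments passed for 8 of the 13, all larger in R1881, beside 0.333% of all genes with a higher and 0.389% with a lower difference.

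**Figure D3:**
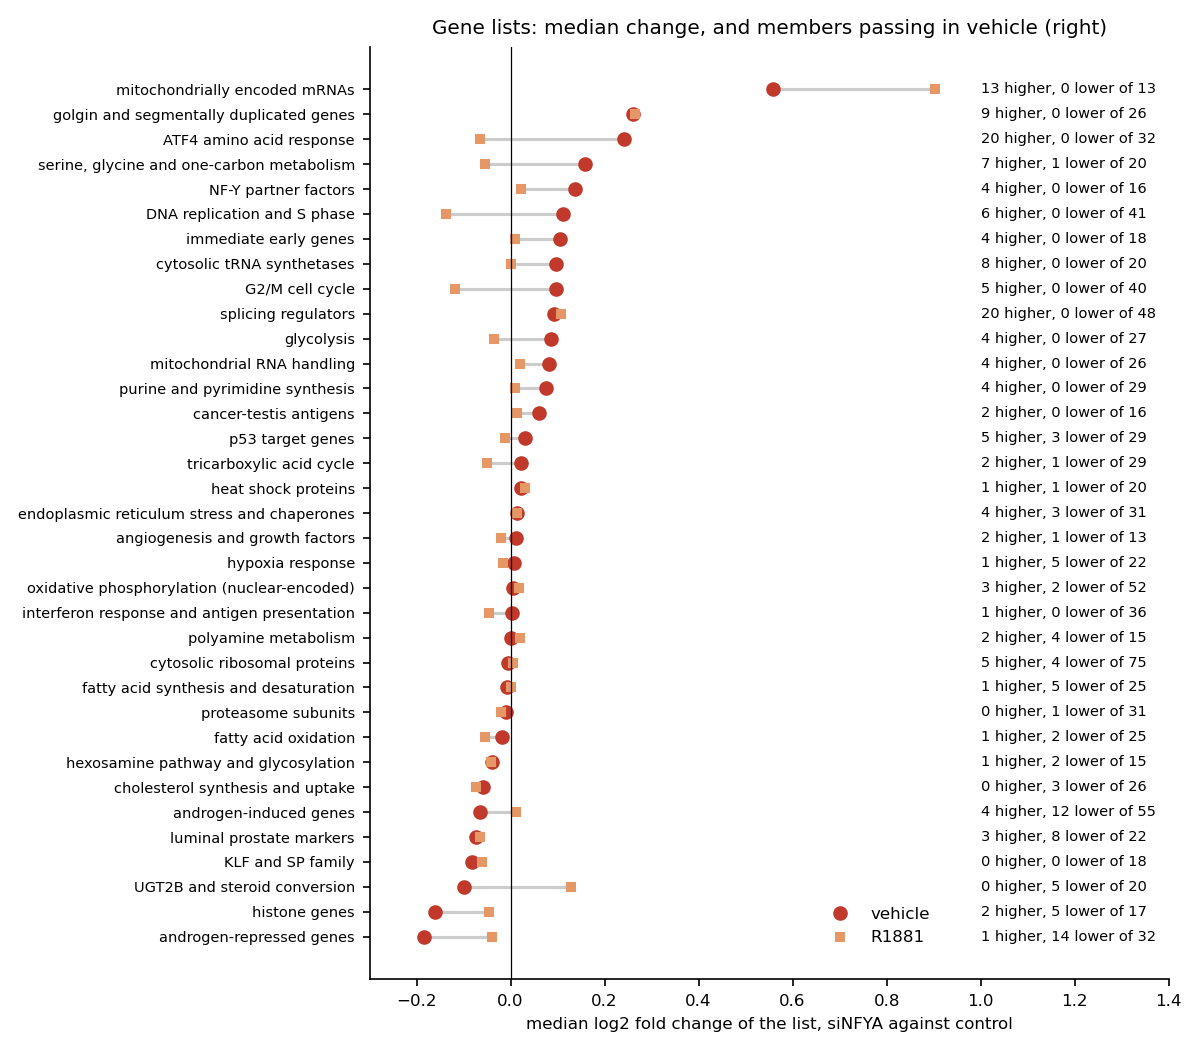
Median log2 fold change of siNFYA against control for each list with at least 10 measured genes, in vehicle (circles) and in R1881 (squares), with the members that passed in vehicle on the right. Mitochondrially encoded mRNAs lie farthest to the right (0.56 in vehicle) and androgen-repressed genes farthest to the left (-0.18).

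Many genes of the amino acid response rose in vehicle. ATF4 is a transcription factor that stressed or amino acid-starved cells translate more, and its targets import and make amino acids. Of 32 measured genes of this response, 20 were higher and none lower (median 0.24), beside 6.67% and 6.79% of all genes. With any one library left out, 15 to 19 were higher. ASNS, asparagine synthetase, stood at 190, 182 and 194 CPM in control and 239, 236 and 239 CPM with siNFYA (log2 0.34, SE 0.04, adjusted p = 3.54e-06). SLC1A5, a glutamine transporter, went from 114, 105 and 114 CPM to 150, 138 and 141 CPM (log2 0.37, adjusted p = 6.91e-06). DDIT4, an inhibitor of mTORC1 signalling, went from 150, 146 and 155 CPM to 191, 202 and 190 CPM (log2 0.37, adjusted p = 1.75e-05). The siNFYA libraries were above all control libraries in these genes. PCK2, mitochondrial phosphoenolpyruvate carboxykinase, had 0.34 (adjusted p = 1.56e-05), and TRIB3, a pseudokinase that ATF4 induces, had 0.38 (adjusted p = 0.000345). With limma on log2(TPM + 1), 11 of the list were higher.

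Some enzymes that serve amino acids and their charging to tRNA also rose. In serine, glycine and one-carbon metabolism, 7 of 20 measured genes were higher and 1 lower (median 0.16), beside 6.67% and 6.79% of all genes. PSAT1, which makes phosphoserine, went from 338, 351 and 333 CPM to 391, 403 and 414 CPM (log2 0.24, adjusted p = 0.000318), and MTHFD2, a mitochondrial folate enzyme, from 155, 163 and 165 CPM to 195, 190 and 198 CPM (log2 0.27, adjusted p = 0.000496). Neither overlapped between groups, and both also belong to the ATF4 list. MAT2A, which makes S-adenosylmethionine, had 0.27 (adjusted p = 0.000294), and CBS, cystathionine beta-synthase, which has a near-identical copy, had 0.31 (adjusted p = 5.27e-06). Of 20 cytosolic tRNA synthetases measured, 8 were higher and none lower (median 0.10), again beside 6.67% and 6.79% of all genes. GARS, for glycine, went from 275, 277 and 281 CPM to 350, 340 and 335 CPM (log2 0.30, adjusted p = 2.81e-05), and IARS, for isoleucine, from 332, 329 and 334 CPM to 381, 387 and 388 CPM (log2 0.22, adjusted p = 0.000131), again without overlap. CARS had 0.34 (adjusted p = 0.000844) and MARS 0.25 (adjusted p = 0.00303). With limma on log2(TPM + 1), 3 synthetases were higher.

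With R1881, siNFYA did not raise the amino acid response in this way. In R1881, 2 of the 32 genes were higher and 3 lower with siNFYA (median -0.06), beside 2.63% and 3.33% of all genes. R1881 itself had raised the list in control cells, with 25 of the 32 higher and 2 lower (median 0.68). Beside these stand 32.1% of all genes higher and 30.8% lower with R1881. The test of the difference, R1881 minus vehicle, passed for 14 of the 32, 13 lower and 1 higher, with a median difference of -0.30. Over all genes it passed for 0.389% lower and 0.333% higher. SLC1A5 stood at 387, 389 and 384 CPM in control with R1881 and at 371, 366 and 365 CPM with siNFYA and R1881, and its difference of -0.44 passed (SE 0.0583, adjusted p = 0.000386). DDIT4 stood at 188, 214 and 187 CPM and at 179, 189 and 179 CPM with R1881, and its difference was -0.48 (adjusted p = 0.000731). For DDIT4 the groups overlapped in R1881, and for SLC1A5 the siNFYA libraries were the lower ones. PCK2 (-0.34, adjusted p = 0.00541), TRIB3 (-0.45, adjusted p = 0.0105), PSAT1 (-0.35, adjusted p = 0.00249) and MTHFD2 (-0.42, adjusted p = 0.00125) also differed, while ASNS did not pass (-0.20, adjusted p = 0.0903).

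**Figure D4:**
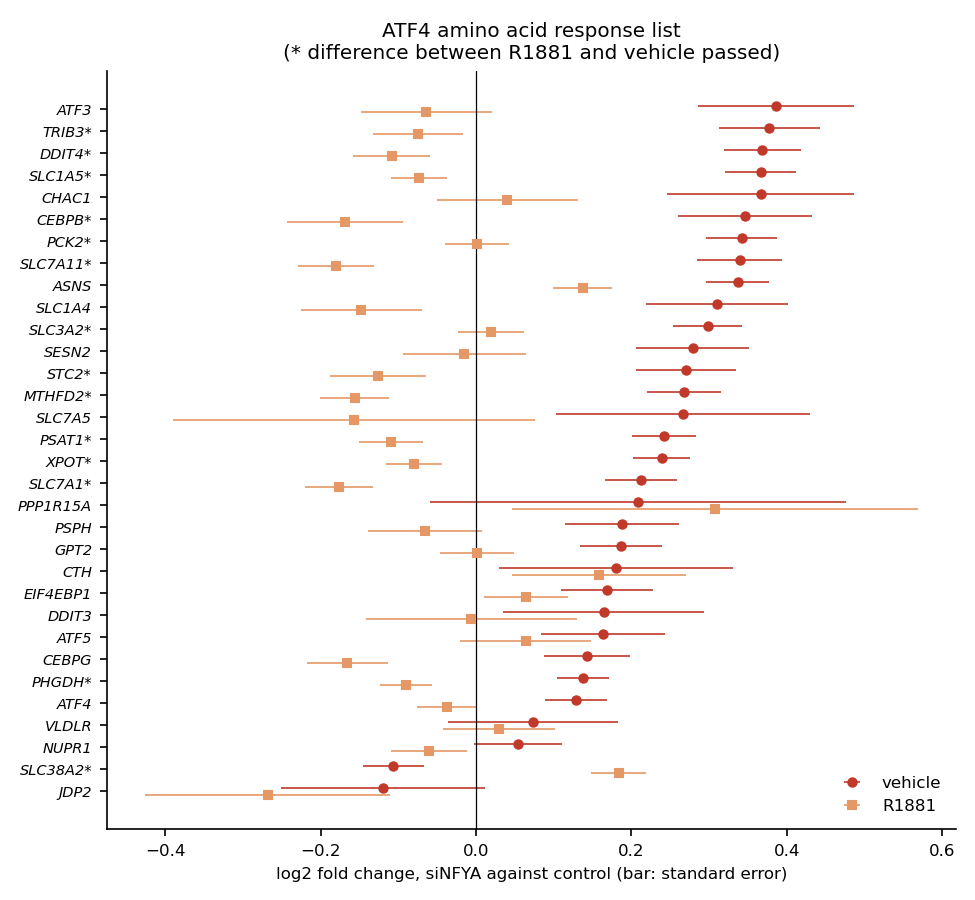
Log2 fold change of siNFYA against control, with its standard error, for the 32 measured genes of the ATF4 list in vehicle (circles) and R1881 (squares). A star marks the 14 genes whose difference between treatments passed. Most circles lie to the right of 0 and most squares at or left of it, with medians of 0.24 and -0.06.

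A minority of cell cycle genes passed in vehicle, and those that did were higher. Of 40 measured G2/M genes, 5 were higher and none lower (median 0.10), and of 41 genes of DNA replication 6 were higher and none lower (median 0.11), beside 6.67% and 6.79% of all genes. The motif letters were in 75.6% of the windows of the G2/M genes and in 59.1% of those of the replication genes. ANLN, anillin of the cytokinetic ring, went from 68.1, 64.1 and 61.4 CPM to 79.9, 78 and 84.4 CPM (log2 0.32, adjusted p = 0.00159), and MCM5, of the replicative helicase, from 67.4, 66.8 and 68.8 CPM to 78.2, 79.5 and 78.2 CPM (log2 0.22, adjusted p = 0.00949). Neither overlapped, but these counts were small. The G2/M count was 2 or 3 with any one library left out (2 without control replicate 3 or siNFYA replicate 1), and the replication count was 2 without control replicate 2 and 3 without control replicate 1, siNFYA replicate 2 or siNFYA replicate 3. With DESeq2 the counts were 2 and 1, and with limma on log2(TPM + 1) both were 0. MCM7, another helicase subunit (log2 0.23, adjusted p = 0.00162), had 0.01 (adjusted p = 0.971) with retained-intron transcripts left out. KIF2C, a microtubule depolymerase (log2 0.27, adjusted p = 0.0177), did not pass without control replicate 2 (adjusted p = 0.0574), control replicate 3 (0.0603) or siNFYA replicate 1 (0.0948). In R1881, 2 genes of each list were lower and none higher with siNFYA, beside 3.33% and 2.63% of all genes. R1881 itself was followed by lower values in control cells for all 40 G2/M genes (median -1.03) and all 41 replication genes (median -1.43). Beside these, 30.8% of all genes were lower with R1881. CDK1 stood at 82.4, 79.5 and 83.7 CPM in control with R1881 and at 74.6, 67.7 and 63.6 CPM with siNFYA, and its difference between treatments was -0.49 (adjusted p = 0.00202).

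Factors known to act with NF-Y, histone genes and chaperones gave mixed counts. In vehicle 6.67% of all genes were called higher and 6.79% lower. Of 16 measured partner factors, 4 were higher and none lower (median 0.14). SREBF1, the master factor of lipid synthesis, went from 264, 255 and 283 CPM to 303, 323 and 316 CPM (log2 0.23, adjusted p = 0.00576). XBP1 did not pass without siNFYA replicate 2 (adjusted p = 0.0871), and MYBL2 and E2F1 each lost the call without 3 or more of the 6 libraries in turn. Of 17 histone genes, 2 were higher and 5 lower (median -0.16), and 86.4% of their windows held the motif. H2AFZ, a replacement histone, rose from 537, 527 and 531 CPM to 623, 634 and 603 CPM (log2 0.22, adjusted p = 6.52e-05). H1F0, a linker histone, fell from 133 ± 2.86 to 109 ± 6.5 CPM (SD, n = 3; log2 -0.28, adjusted p = 0.000424), and HIST2H2BE, an H2B gene, from 119, 111 and 118 CPM to 105, 93.1 and 101 CPM (log2 -0.22, adjusted p = 0.00374). These 3 genes did not overlap between groups. The lower count for histones was 3 without control replicate 2. The higher count was 1 without control replicate 1, control replicate 2 or siNFYA replicate 3, and 4 without siNFYA replicate 1. Of 31 chaperones and stress genes of the endoplasmic reticulum, 4 were higher and 3 lower (median 0.01), with the motif in 81.1% of windows. HSPA5, the BiP chaperone, fell from 742, 738 and 743 CPM to 670, 674 and 677 CPM (log2 -0.14, adjusted p = 0.00888).

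A minority of lipid genes passed, most of them lower, beside 6.67% of all genes called higher and 6.79% lower. Of 26 genes of cholesterol synthesis and uptake, 3 were lower and none higher (median -0.06), and the count was 1 without control replicate 2 or siNFYA replicate 1 and 0 with limma on log2(TPM + 1). SC5D, a sterol desaturase, went from 124, 121 and 116.2 CPM to 109, 92.6 and 97 CPM (log2 -0.28, adjusted p = 0.00333). Of 25 genes of fatty acid synthesis and desaturation, 5 were lower and 1, SREBF1, was higher (median -0.01), and the lower count was 2 without siNFYA replicate 1 or with limma. ACSL3, an acyl-CoA synthetase, went from 209, 207 and 197 CPM to 168, 173 and 180 CPM (log2 -0.24, adjusted p = 0.000449), and FADS2, a desaturase, from 691, 681 and 708 CPM to 565, 604 and 638 CPM (log2 -0.20, adjusted p = 0.00155). The siNFYA libraries were lower in all 3 of these enzymes with no overlap. A minority of members passed in other metabolic lists too: 4 higher and none lower of 27 in glycolysis, 2 and 1 of 29 in the tricarboxylic acid cycle, 1 and 2 of 25 in fatty acid oxidation, 4 and 0 of 29 in purine and pyrimidine synthesis, and 2 and 4 of 15 in polyamine metabolism. In the polyamine list SRM, spermidine synthase, rose from 115.9, 106 and 107 CPM to 128, 138 and 137 CPM (log2 0.29, adjusted p = 0.000496), while AOC1 fell. GLUL, glutamine synthetase, had 199, 198 and 198 CPM in control and 145, 146 and 149 CPM with siNFYA (log2 -0.44, SE 0.0401, adjusted p = 7.5e-08), and was named after its values were seen.

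More genes were lower than higher with siNFYA in vehicle among both the androgen-repressed and the androgen-induced genes. R1881 itself was followed by calls for 32.1% of all genes higher and 30.8% lower in control cells, and that comparison shares the control vehicle libraries with the knockdown. With siNFYA in vehicle 6.79% of all genes were called lower and 6.67% higher. Of 32 androgen-repressed genes measured, 14 were lower and 1 higher with siNFYA (median -0.18). With R1881 in control 23 of the same 32 were lower and 7 higher (median -2.35). UGT2B17, which glucuronidates androgens, stood at 286, 286 and 275 CPM in control and 219, 207 and 219 CPM with siNFYA (log2 -0.40, SE 0.0422, adjusted p = 7.31e-07). OPRK1 went from 85.5, 90.4 and 85.8 CPM to 51.1, 51.5 and 53.1 CPM (log2 -0.75, SE 0.0626, adjusted p = 1.6e-08). Both were lower in every siNFYA library. DDC, dopa decarboxylase (log2 -0.31, adjusted p = 6.97e-05), had -0.03 (adjusted p = 0.839) with retained-intron transcripts left out. The 1 member that was higher, IGFBP3, did not pass without any single control library (adjusted p 0.0601 to 0.105) or siNFYA replicate 1 (0.392). With limma on log2(TPM + 1), 5 androgen-repressed genes were lower. Of 55 androgen-induced genes, 12 were lower and 4 higher (median -0.06). The higher count was 2 without siNFYA replicate 2, and the lower count was 4 with limma on log2(TPM + 1).

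The kallikreins KLK3, which encodes prostate-specific antigen, and KLK2 rose although most androgen-induced genes that passed fell. KLK3 stood at 65.6, 54.6 and 58.6 CPM in control and 83.4, 89.8 and 106 CPM with siNFYA (log2 0.64, SE 0.0681, adjusted p = 7.47e-07). KLK2 went from 7.17, 4.89 and 5.2 CPM to 11.5, 10.2 and 12.2 CPM (log2 0.96, SE 0.148, adjusted p = 9.44e-05). The siNFYA libraries were above all controls in both genes. KLK3 kept 0.49 (adjusted p = 0.000103) without retained-intron transcripts, whereas KLK2 had 0.41 (adjusted p = 0.362). The retained-intron share of their counts rose from 11.1 to 20.5% for KLK3 and from 52.2 to 67.7% for KLK2. In R1881 the KLK3 change was 0.17 and the difference passed (-0.46, SE 0.0831, adjusted p = 0.00541).

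Among luminal markers more were lower than higher. Of 22 luminal markers measured, 8 were lower and 3 higher (median -0.07), beside 6.79% and 6.67% of all genes. The lower count was 5 without siNFYA replicate 1 or siNFYA replicate 2 and 4 with limma on log2(TPM + 1). ACPP, prostatic acid phosphatase, went from 168, 176 and 169 CPM to 113, 126 and 125 CPM (log2 -0.50, SE 0.0499, adjusted p = 3.3e-07). STEAP2, a metalloreductase, went from 1419, 1448 and 1392 CPM to 1178, 1176 and 1201 CPM (log2 -0.26, adjusted p = 8.01e-06), and FOLH1, prostate-specific membrane antigen, from 1577, 1565 and 1505 CPM to 1369, 1328 and 1294 CPM (log2 -0.22, adjusted p = 0.00011). HOXB13, a homeobox factor of prostate cells, had -0.18 (adjusted p = 0.000449). The first 3 did not overlap between groups.

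The effect of siNFYA differed between treatments for 3 of 20 genes of steroid conversion, all higher in R1881, beside 0.333% of all genes. In this list, which holds the UGT2B family, 5 were lower and none higher in vehicle (median -0.10), beside 6.79% and 6.67% of all genes. With R1881, 3 were higher and 2 lower (median 0.13), beside 2.63% and 3.33% of all genes. UGT2B15, which also glucuronidates androgens and shares much sequence with UGT2B17, went from 185, 186 and 191 CPM to 154, 158 and 152 CPM in vehicle (log2 -0.27, adjusted p = 0.000179). In R1881 it went from 18.7, 19.3 and 19.1 CPM to 23.7, 26.9 and 29.4 CPM (log2 0.48, adjusted p = 0.00344). The groups stood apart in opposite directions, and the difference of 0.75 passed (SE 0.107, adjusted p = 0.000655), as it did for UGT2B17 (0.55, adjusted p = 0.00202). RDH11, a retinol dehydrogenase, was lower in vehicle (-0.28, adjusted p = 1.92e-05) and in R1881 (-0.24, adjusted p = 0.000195).

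The effect of siNFYA differed between R1881 and vehicle for 91 genes (0.722%), 42 with a higher (0.333%) and 49 with a lower (0.389%) effect in R1881. Of these, 75 also passed in vehicle, 47 of them higher and 28 lower there. Both tests use the same vehicle libraries, so this overlap is not independent evidence. Of the 5 largest differences in each direction, chosen by the rule used for the falls, those of CAMK2N1, UGT2B15, MYNN and LTN1 held without any one library. CAMK2N1, an inhibitor of CaM kinase II, went from 271, 280 and 283 CPM to 238, 264 and 245 CPM in vehicle and from 20.4, 23.6 and 24 CPM to 12.3, 13.4 and 10.3 CPM in R1881 (difference -0.75, SE 0.133, adjusted p = 0.00541). MYNN, a zinc-finger gene next to ACTRT3, went from 73.6, 85.2 and 77.4 CPM to 52.5, 55.6 and 50.8 CPM in vehicle and from 26.3, 25.3 and 27.5 CPM to 29, 31.1 and 29.2 CPM in R1881 (difference 0.75, adjusted p = 0.00125). LTN1, a ubiquitin ligase of ribosome quality control, had 0.73 (adjusted p = 0.00502). CAMK2N1 lay below control in both treatments, while MYNN lay below control in vehicle and above it in R1881, where its change of 0.18 did not pass (adjusted p = 0.316). With siNFYA R1881 replicate 1 left out 264 genes passed. The count was 57 without control vehicle replicate 2 or control R1881 replicate 3, 49 without siNFYA vehicle replicate 2, 47 without siNFYA R1881 replicate 3 and 43 without control R1881 replicate 2.

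Stress, growth factor and immediate early genes had a few clear members. The list counts here stand beside 6.67% of all genes called higher and 6.79% lower. CDKN1A, the p21 inhibitor of cyclin-dependent kinases, went from 82.3, 82.8 and 92 CPM to 110, 118 and 105 CPM (log2 0.38, adjusted p = 0.000138), within a list of 29 p53 targets of which 5 were higher and 3 lower (median 0.03). MYC went from 149, 151 and 146 CPM to 175, 193 and 192 CPM (log2 0.33, adjusted p = 6.8e-05), and NR4A1, an orphan nuclear receptor, from 7.62, 6.04 and 6.54 CPM to 11.7, 10.7 and 11.6 CPM (log2 0.75, adjusted p = 0.00226). These groups did not overlap, and 4 of 18 immediate early genes were higher and none lower (median 0.10). VEGFA, the vascular growth factor, went from 48.7, 45.8 and 48.7 CPM to 73.4, 64.9 and 66 CPM (log2 0.51, adjusted p = 9.04e-06), with 0.22 (adjusted p = 0.0412) when retained-intron transcripts were left out. GDF15, a stress cytokine, went from 97.8, 103 and 106 CPM to 128, 140 and 126 CPM (log2 0.36, adjusted p = 0.000269). Both lay above all controls in each siNFYA library, in a list of 13 growth factors with 2 higher and 1, VEGFB, lower. Of 22 hypoxia genes, 1 was higher (VEGFA) and 5 lower (median 0.01). CITED2, a co-regulator of hypoxia signalling named after its values were seen, fell from 173, 170 and 168 CPM to 124, 132 and 128 CPM (log2 -0.41, adjusted p = 5.36e-07). Ribosomal protein genes had 5 higher and 4 lower of 75 (median -0.01), proteasome subunits 0 and 1 of 31, interferon genes 1 and 0 of 36, and the KLF and SP family 0 and 0 of 18.

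The siRNA against KLF5, given in the same vehicle, allowed a direct test against another knockdown, with 3 siNFYA and 2 siKLF5 libraries. Of 12922 genes, 774 differed (5.99%), 304 higher (2.35%) and 470 lower (3.64%) with siNFYA. The count was 472 without siNFYA replicate 1, 396 without siNFYA replicate 2 and 225 without siKLF5 replicate 3, where the lone siKLF5 library is assumed to vary like the other groups. On a common scale over 17 libraries, KLK3 stood at 83.1, 89.4 and 105 CPM with siNFYA, at 33.3 and 35.8 CPM with siKLF5 and at 65.4, 54.4 and 58.3 CPM in control (siNFYA minus siKLF5 1.42, adjusted p = 1.2e-11). The knockdowns thus lay on opposite sides of the control libraries. KLK2 differed by 1.63 (adjusted p = 1.22e-06). SMARCA5 stood at 86.7, 80.2 and 85.5 CPM with siNFYA and at 129.8 and 125.1 CPM with siKLF5 (-0.60, adjusted p = 1.59e-07), and DDIT4 at 190, 201 and 189 CPM and at 153 and 142 CPM (0.39, adjusted p = 5.17e-05). ACTRT3 (-1.32, adjusted p = 0.00064), GRIK1 (-1.02, adjusted p = 0.000446) and PCDH11Y (-0.999, adjusted p = 2.84e-10) were also lower than with siKLF5. For these genes the siNFYA and siKLF5 libraries did not overlap.

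Other changes were not told apart from those with siKLF5. MT-ND4 stood at 3774, 3486 and 3339 CPM with siNFYA and 3048 and 3731 CPM with siKLF5, which overlapped (0.06, adjusted p = 0.724), and GOLGA8B at 32, 23.1 and 26.4 CPM and 22 and 20.8 CPM (0.35, adjusted p = 0.243). Of the 13 mitochondrially encoded mRNAs, none differed between the knockdowns (median 0.06), and with siKLF5 against control 11 were higher (median 0.50), beside 0.836% of all genes called there, 0.580% higher and 0.255% lower. Of the 48 splicing regulators 1 was higher with siNFYA than with siKLF5, and of the 26 duplicated genes 1. Beside these, 2.35% of all genes were higher and 3.64% lower with siNFYA than with siKLF5. A p that misses the threshold does not show that the knockdowns acted alike. Of the 32 ATF4 genes, 7 were higher with siNFYA than with siKLF5 and none lower (median 0.14), and of the 32 androgen-repressed genes 10 were lower and none higher (median -0.12). The same shares of all genes, 2.35% higher and 3.64% lower, stand beside these counts. Of the 14 largest falls 9 passed against siKLF5. B3GALT4 (-0.21, adjusted p = 0.713), DIXDC1 (-0.31, adjusted p = 0.39), SMIM11A, IL36RN and SLC40A1 did not. Of the 14 largest rises 2 passed. The 2 rises were PCSK5 and PLCG2, whose changes each rested on 1 siNFYA library. The falls and rises were picked by values in the same siNFYA libraries, which favours passing here.

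**Figure D5:**
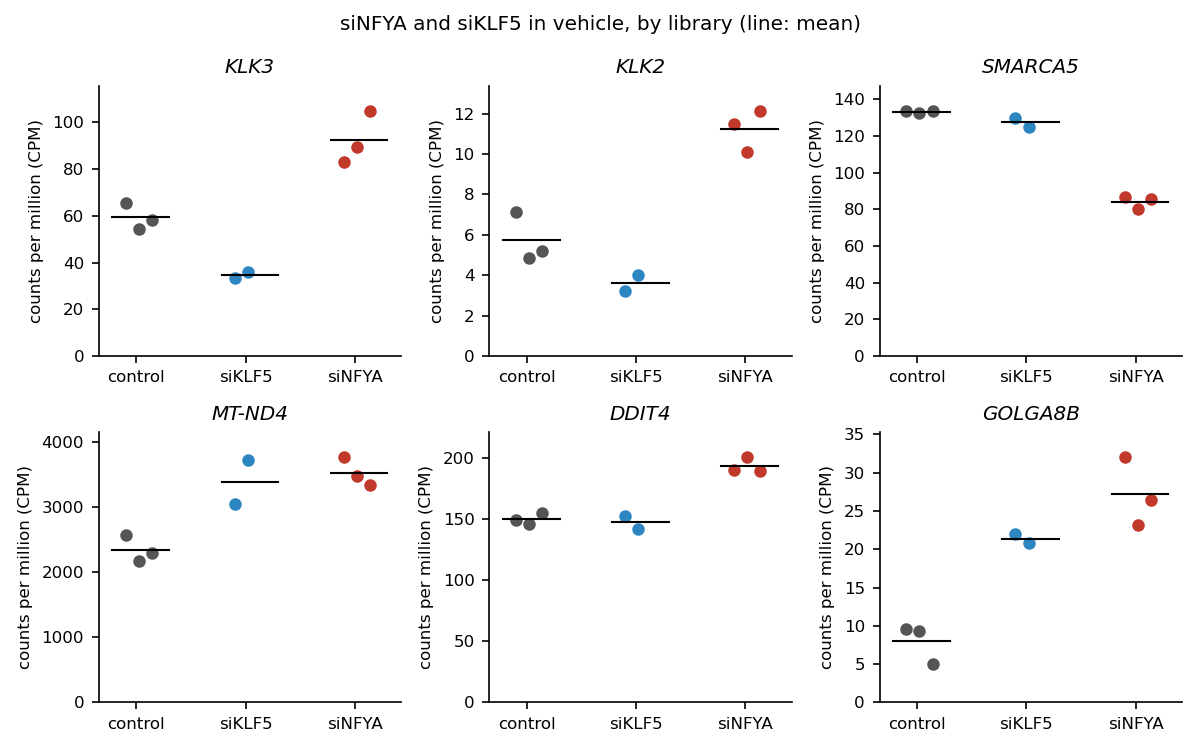
CPM, scaled over 17 libraries, of KLK3, KLK2, SMARCA5, MT-ND4, DDIT4 and GOLGA8B in the vehicle libraries of control (3), siKLF5 (2) and siNFYA (3). Points are libraries and the line is the mean. KLK3 is lowest with siKLF5 and highest with siNFYA, SMARCA5 is low with siNFYA only among these groups, and MT-ND4 and GOLGA8B lie above control with both siRNA pools.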

How the data were processed

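Per the labels' protocols, LNCaP RNA was purified on columns and the sequencing libraries kept strand. Kallisto, DESeq2, Trimmomatic, FastQC and GRCh38 are named in the submitters' processing notes, with no version. The authors deposited estimated counts and TPM (length-scaled transcript abundance), both per transcript and summed per gene. Estimated counts are split by sequence between transcripts and near-identical genes, so such genes are uncertain, and their split has an error that the files do not give. Genes were joined to GENCODE v29 (34846 of 34912 found), and 27 symbols stored as dates were left as they were.

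Estimated counts were rounded and tested with edgeR 4.0.16 (TMM scaling, filterByExpr, quasi-likelihood test) over the 12 libraries of control and siNFYA, with and without R1881, and over 17 libraries for siKLF5. P-values were adjusted over all genes tested by the Benjamini-Hochberg method, with a threshold of 0.05. Transcripts were tested in the same way. DESeq2 1.42.0, limma 3.58.1 on log2(TPM + 1) with the deposited TPM, other filters and scalings, and leaving out each library were the alternatives. Leaving out retained-intron transcripts was added after seeing the data. The test code was tested on simulated data (R 4.3.3, Python 3.11.15).

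The members and gene lists were chosen with earlier results of these data known, so a list's count is a description. Named genes were NFYA, NFYB and NFYC, the 14 largest rises and falls (protein-coding, at least 5 CPM, groups not overlapping), the passing members of each list with the smallest adjusted p, and the 5 largest differences each way; the 6 smallest adjusted p in each direction, CDK1's promoter, GLUL and CITED2 were added after their values were seen. siKLF5 vehicle replicate 1 was not analysed here. Some genes of the lists are counted but not reported here by name.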

Additional observations from a re-analysis of the deposited data

Results flagged for a closer look

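The effect of siNFYA differed between R1881 and vehicle, by the interaction test of edgeR with Benjamini-Hochberg adjustment, for 25 of the genes named under the rules. Values are log2 effects in R1881 minus those in vehicle. In the amino acid response and one-carbon genes the effect was lower in R1881 for SLC1A5 (-0.44), DDIT4 (-0.48), PCK2 (-0.34), TRIB3 (-0.45), PSAT1 (-0.35), MTHFD2 (-0.42) and CEBPB (-0.52), a transcription factor. In proliferation genes it was lower for CDK1 (-0.49), MCM5 (-0.49), KIF2C (-0.68), IQGAP3 (-0.67), a scaffold protein, and TCF19 (-0.55), a cell cycle-linked factor. The kallikreins KLK3 (-0.46) and KLK2 (-0.65) and the kinase inhibitor CAMK2N1 (-0.75) also had a lower effect in R1881.

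The effect was higher in R1881 for UGT2B15 (0.75) and UGT2B17 (0.55), which inactivate androgens, and for ACSL3 (0.38), GLUL (0.41) and CITED2 (0.49). It was higher too for SOX9 (0.76), a developmental transcription factor, MYNN (0.75), LTN1 (0.73), GALNT18 (0.70), a glycosyltransferase, and MT-ND4 (0.31). Leaving out at least 1 library ended the call for KIF2C, IQGAP3, KLK2, TCF19, SOX9, GALNT18, MT-ND4, CEBPB and MCM5.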

How the results depend on the processing

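Counts of genes passing depended on the method and on single libraries. Of 1696 genes passing in vehicle (841 higher, 855 lower), DESeq2 gave 953 (385 and 568) and limma on log2(TPM + 1) gave 457 (205 and 252). Leaving out 1 library gave 1065 to 1604 (537 to 699 higher, 524 to 905 lower). For the difference between treatments, 91 genes (42 higher, 49 lower) became 326 (147 and 179) with no filter and 43 to 264 (21 to 121 higher, 20 to 143 lower) with 1 library left out. Against siKLF5, 774 genes became 458 with DESeq2 (126 higher), and 225 to 1002 with 1 library left out (50 to 487 higher, 175 to 516 lower). The 161 transcripts became 38 to 85 (18 to 33 higher, 20 to 59 lower).

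The mitochondrial share rose by 0.920 percentage points of counts (0.824 to 1.03 with 1 library left out) and by 1.75 points of TPM. The AC010970.1 difference of 0.784 points became -0.0777 without siNFYA replicate 3 (range -0.0777 to 1.29). LAMB1 turned to 0.16 with limma, and JMJD7-PLA2G4B to -0.14 and CLK1 to -0.074 with retained-intron transcripts left out; the cause was not tested. Of 2177 values for single genes and lists under the alternatives, 1871 kept direction and side of the threshold, 303 lost the call and 3 reversed.

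No paired analysis was possible because no number in the sample names recurs between groups. Depth of 4416653 to 6411869 counts limits genes of low level, and 1 siRNA pool in 1 cell line limits the reach of every comparison.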

Other observations

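In other gene groups a minority of members passed in vehicle, beside 6.67% of all genes called higher and 6.79% lower. Of 20 heat shock proteins 1 was higher and 1 lower (median 0.02), and of 15 genes of the hexosamine pathway and glycosylation 1 was higher, OGT, and 2 were lower (median -0.04). Of 16 cancer-testis antigens 2 were higher and none lower (median 0.06). No basal, neuroendocrine or stromal marker passed, of 2, 3 and 8 measured. Of 2 blood and endothelial markers 1 was lower, VWF (log2 -0.80, adjusted p = 0.0199 by edgeR), which went from 8.22, 8.77 and 9.21 CPM to 5.4, 3.44 and 6.42 CPM. It did not pass without control replicate 2 (adjusted p = 0.0608), control replicate 3 (0.0614) or siNFYA replicate 2 (0.139).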
